A study of Sus scrofa with 10 samples.

Results

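Pig livers sampled on day 8 of treatment with a bioartificial liver that held cells were compared with normal pig liver, to see which genes still differed, or differed anew, from the normal state. A bioartificial liver is a circuit outside the body in which blood or plasma is passed over living liver cells. Of the 31905 genes in the deposited table, the 12180 that reached 1 FPKM in 2 or more of the 10 libraries of the study entered, and the comparison rests on 5 of the 10 libraries. An FPKM value counts the sequenced fragments of a gene relative to the length of the gene and to all fragments of the library.

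The study measured RNA from pig liver (Sus scrofa, labelled as wild type) in liver failure after hepatectomy, the surgical removal of part of the liver. Control is 3 libraries of normal liver at day 0. hiHepD8 is 2 libraries at day 8 of the device filled with human induced hepatocytes, cells of another kind that were reprogrammed straight into cells like hepatocytes. For reference, NoBAL is 2 libraries of liver failure with no device at day 2, EmptyBAL is 2 libraries with a device that held no cells at day 3, and hiHepD4 is 1 library of the cell-filled device at day 4. No untreated animals at day 8 were among the samples, so the device, its cells, the surgery and the time since surgery cannot be told apart in hiHepD8 against Control. Although hepatocyte is the cell type named in the labels, the RNA came from liver extracted with Trizol with no mention of isolated cells, and the values were read as whole tissue. In such bulk samples fewer cells of a type and less RNA per cell cannot be told apart. The labels do not say whether the libraries of a group came from separate animals.

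The liver makes most plasma proteins, breaks down amino acids and disposes of their nitrogen as urea, stores and releases glucose, oxidizes and makes fatty acids, makes cholesterol and turns it into bile acids, and clears drugs. After part of the liver is removed, the remaining hepatocytes enter the cell cycle and regrow the lost mass, while stellate cells and endothelial cells rebuild matrix and vessels. Fasting, glucagon and glucocorticoids push the hepatocyte towards breakdown of amino acids and release of glucose, and insulin pushes it towards storage.

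Both groups were tight. Pearson correlation of log2(FPKM + 1) was 0.992 to 0.994 within Control and 0.992 within hiHepD8, against 0.956 within NoBAL and 0.893 within EmptyBAL. Of the genes averaging 10 FPKM or more, 0.151% to 0.3% were 2-fold apart within Control and 0.269% within hiHepD8. The summed FPKM was lower in hiHepD8 (564820 and 547310) than in Control (823760 to 829970), and albumin transcripts held 2.3% and 2.37% of it in hiHepD8 against 6.35% to 6.64% in Control. Depth could not be read from the values and is unknown, so no counting intervals are given.

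Each gene was tested with limma on log2(FPKM + 1) in 1 model of all 10 libraries, and counted as called where the adjusted p (Benjamini-Hochberg) was under 0.05; every change below is on this log2 scale, which understates changes of weakly expressed genes, and ± after a change is limma's standard error. By this rule 3923 of 12180 genes (32.2%) differed between hiHepD8 and Control. Of these, 1839 (15.1% of genes tested) were higher and 2084 (17.1%) lower in hiHepD8, and the median change over all genes tested was -0.02. The groups' libraries did not overlap for 9745 genes (80.0%), so lack of overlap alone marks no gene here. When each library was scaled to its upper quartile, which moved the median of all genes by 0.165, 62% of the calls were higher, and when it was rescaled without mitochondrial and the top 5 genes, which moved it by 0.345, 71.9% were higher, against 46.9% as deposited.

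The count of calls leaned on both hiHepD8 libraries: 760 genes were higher and 963 lower without hiHepD8 replicate 1, and 788 and 981 without replicate 2. Without a Control library, 1193 to 1241 genes were higher. With the Control libraries averaged to 1 sample and the hiHepD8 libraries averaged to another, as would be right if each set came from 1 animal, 17 genes remained called, all of them among the 3923; 13 have a symbol, and these are PTPRN and CLDN11 on the higher side and TECTB, PPARA, THRSP, PVALB, DGAT2, CYP2B22, SERPINA6, ATF3, FADS2, FOSB and CA3 on the lower side. At an unadjusted p under 0.05 that fit gave 1463 genes. The p-values and standard errors below rest on 1 spread shared by all groups, to which the looser NoBAL and EmptyBAL libraries contribute. With the libraries averaged, that spread came from NoBAL and EmptyBAL alone. With only the 5 Control and hiHepD8 libraries in the fit, 3980 genes were higher and 4404 lower. The spread between libraries of a group may be technical.

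The largest rise was that of SDS, serine dehydratase, which turns serine into pyruvate (chr14:38503922-38513908 in Sscrofa11.1, as are all positions below). SDS stood at 17.4, 15.6 and 15.3 FPKM in the 3 Control libraries and at 1963 and 1927 FPKM in the 2 hiHepD8 libraries, the order in which values per library are given throughout. NoBAL read 17.4 and 18.8 FPKM, and the change of hiHepD8 against Control was 6.84 ± 0.74 (adjusted p = 0.00046). APOD, apolipoprotein D, a secreted lipid carrier (chr13:132514546-132562594), went from 0.741, 0.627 and 0.862 to 114 and 113 FPKM, a rise of 6.04 ± 0.39 (adjusted p = 5e-05). AFMID, arylformamidase of tryptophan breakdown (chr12:3759688-3785829), went from 5.34, 7.17 and 5.94 to 224 and 223 FPKM and rose by 4.98 ± 0.37. In all 3 genes both hiHepD8 libraries lay far above every Control library and close to each other.

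The other 7 of the 10 largest rises were NRIP3 (4.74), MMP2 (4.53), PTPRN (4.38), FABP5 (4.05), MTMR7 (4.02), S100A2 (3.94) and IGFBP5 (3.93). MMP2, gelatinase A, a matrix protease (chr6:30059247-30087031), read 9.91, 9.01 and 7.75 FPKM in Control and 229 and 223 FPKM in hiHepD8. It was called higher than Control in EmptyBAL too, with 76.1 and 123 FPKM (change 3.31). PTPRN, known as a protein of secretory granules in neuroendocrine cells (chr15:121329284-121349228), read 0.335, 0.753 and 0.492 FPKM in Control and 0.0759 and 0.0619 FPKM in NoBAL. It read 29.3 and 31.7 FPKM in hiHepD8 (4.38 ± 0.15, adjusted p = 3.7e-06). PTPRN reached 1 FPKM in hiHepD8 alone and so passed the filter only through that group, which limits what its p-value can show. FABP5, a fatty acid binding protein, read 114 and 28.4 FPKM in EmptyBAL, on either side of hiHepD8 (36.4 and 36.3 FPKM). S100A2, a calcium-binding protein, was higher in NoBAL (141 and 100.3 FPKM) than in hiHepD8 (19.5 and 20.5 FPKM). FABP5 lost the call without either hiHepD8 library (adjusted p = 0.051).

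**Figure D1:**
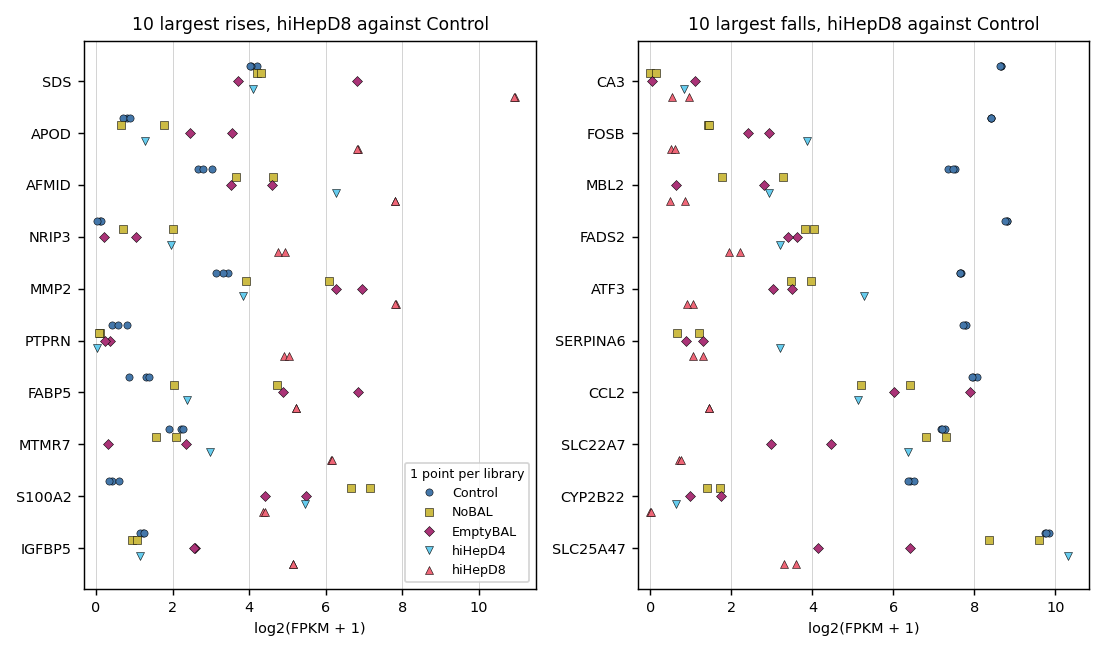
Level of the 10 genes that rose most (left) and the 10 that fell most (right) in hiHepD8 against Control, as log2(FPKM + 1), with 1 point for each of the 10 libraries and a colour and shape for each group. The 2 hiHepD8 points lie apart from the 3 Control points for all 20 genes, as the choice of these genes requires, and the NoBAL points of SLC22A7 and SDS lie beside the Control points.

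The 10 largest falls were CA3 (-7.90), FOSB (-7.83), MBL2 (-6.78), FADS2 (-6.71), ATF3 (-6.67), SERPINA6 (-6.58), CCL2 (-6.55), SLC22A7 (-6.49), CYP2B22 (-6.42) and SLC25A47 (-6.34). CA3, carbonic anhydrase 3 (chr4:51227485-51237861), read 399, 402 and 394 FPKM in Control and 0.947 and 0.438 FPKM in hiHepD8 (adjusted p = 4.7e-06), and was near 0 in NoBAL as well (0 and 0.0987 FPKM). CA3 and PVALB, parvalbumin (67.7, 69.1 and 61.3 FPKM in Control, 0.962 and 1.16 in hiHepD8), are best known from skeletal muscle. Of the 5 muscle and fat markers tested, PVALB and PLIN1 fell. The summed level of the 5, most of it PVALB and DES, was 78 to 86.8 FPKM in Control and 12.1 to 12.7 FPKM in hiHepD8. The muscle genes MYLPF, TNNT3 and CKM were listed at 0 in all 3 Control libraries, but they stayed under 1 FPKM in every group. Their zeros therefore do not set Control apart, and other muscle genes below the filter were not all at 0 there. The part of muscle tissue in these falls was not tested.

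SLC22A7, an organic anion transporter of the hepatocyte membrane (chr7:38328474-38334879), read 144, 153 and 146 FPKM in Control, 158 and 111 FPKM in NoBAL and 0.622 and 0.691 FPKM in hiHepD8. Its change against Control was -6.49 ± 0.39 (adjusted p = 3.8e-05), whereas NoBAL was not called against Control (change -0.16). SLC25A47, a mitochondrial carrier of the liver (chr7:121204213-121210376), was likewise not called in NoBAL, with 862, 916 and 866 FPKM in Control, 775 and 326 FPKM in NoBAL and 11 and 8.9 FPKM in hiHepD8. SERPINA6, the corticosteroid-binding globulin of plasma (chr7:115535552-115554536), was instead low in NoBAL as well, with 216, 222 and 209 FPKM in Control, 1.31 and 0.584 FPKM in NoBAL and 1.07 and 1.48 FPKM in hiHepD8.

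The called genes were sorted by what NoBAL showed, with the caution that hiHepD8 and NoBAL were set against the same 3 Control libraries. NoBAL differed from Control in 6021 genes (49.4%), 3068 of them higher (25.2%) and 2953 lower (24.2%), and hiHepD8 from NoBAL in 5764 (47.3%). Of the 3923 genes called in hiHepD8 against Control, 1795 (14.7% of genes tested) were called in NoBAL against Control in the same direction, 533 of them higher (4.38%) and 1262 lower (10.4%); these are called remaining below. New genes, not called in NoBAL but called in the same direction in hiHepD8 against NoBAL, were 1213 (9.96%), 787 of them higher (6.46%) and 426 lower (3.5%). Another 476 (3.91%) were called in NoBAL in the opposite direction, 282 higher (2.32%) and 194 lower (1.59%) in hiHepD8, and 439 (3.6%) could not be placed. Without hiHepD8 replicate 1 or 2 these counts were 886 and 905 remaining, 553 and 570 new, and 134 and 144 opposite, and without a Control library 1163 to 1182 remaining and 197 to 205 opposite.

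Among remaining genes, the largest falls were CA3, FOSB, MBL2, FADS2 and ATF3, and the largest rises AFMID, NRIP3, MMP2, S100A2 and EFEMP1, which encodes fibulin-3, a matrix glycoprotein (1.52, 1.06 and 0.924 FPKM in Control, 26 and 26.8 in hiHepD8). Remaining means the same direction as in NoBAL, not the same level. AFMID, NRIP3, MMP2 and EFEMP1 were also called higher in hiHepD8 than in NoBAL (changes of 3.67, 3.48, 2.83 and 2.58). S100A2 was called lower in hiHepD8 than in NoBAL (-2.51). The largest new rises were SDS, APOD, MTMR7, IGFBP5 and TAT. The largest new falls were SLC22A7, SLC25A47, ACSL1, GPD1 and APOA4; GPD1, glycerol-3-phosphate dehydrogenase, went from 237, 229 and 235 to 6.88 and 8 FPKM, and APOA4, a lipoprotein component, from 847, 875 and 838 to 43.9 and 45 FPKM, with NoBAL at 181 and 262 and at 481 and 2391 FPKM. APOA4 lost the call without either hiHepD8 library (adjusted p = 0.16 to 0.17). New is judged against NoBAL alone. In EmptyBAL, at day 3, each of these new falls was also called lower than Control by limma (adjusted p = 0.00017 to 0.029). SLC22A7 read 6.85 and 20.9 FPKM there. Of the new rises, APOD and IGFBP5 were also called higher in EmptyBAL than in Control, TAT was called lower, and SDS and MTMR7 were not called.

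Genes that moved the opposite way included the lipid droplet coat protein PLIN2, which read 24.5, 22.6 and 22 FPKM in Control, 724 and 751 FPKM in NoBAL and 4.95 and 4.31 FPKM in hiHepD8. Its change against Control was 4.94 ± 0.44 in NoBAL and -2.09 ± 0.44 in hiHepD8 (adjusted p = 0.0001 and 0.0087). CIDEC, another droplet protein, TNFRSF12A, the receptor of the cytokine TWEAK, and ACAT2 and FDPS, enzymes near the start of the cholesterol pathway, were likewise higher in NoBAL and lower in hiHepD8 than in Control. SPARCL1, a matrix-associated glycoprotein, GAS6, a ligand of TAM receptors, STX18, a syntaxin of vesicle traffic, and AQP1, a water channel, were lower in NoBAL and higher in hiHepD8, as was PTPRN. For PTPRN the Control and NoBAL values all lay under 1 FPKM. AQP1 read 8.73, 7.29 and 8.8 FPKM in Control, 4.23 and 1.46 FPKM in NoBAL and 50.5 and 51.8 FPKM in hiHepD8. PLIN2 lost the call without either hiHepD8 library (adjusted p = 0.057 to 0.07).

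**Figure D2:**
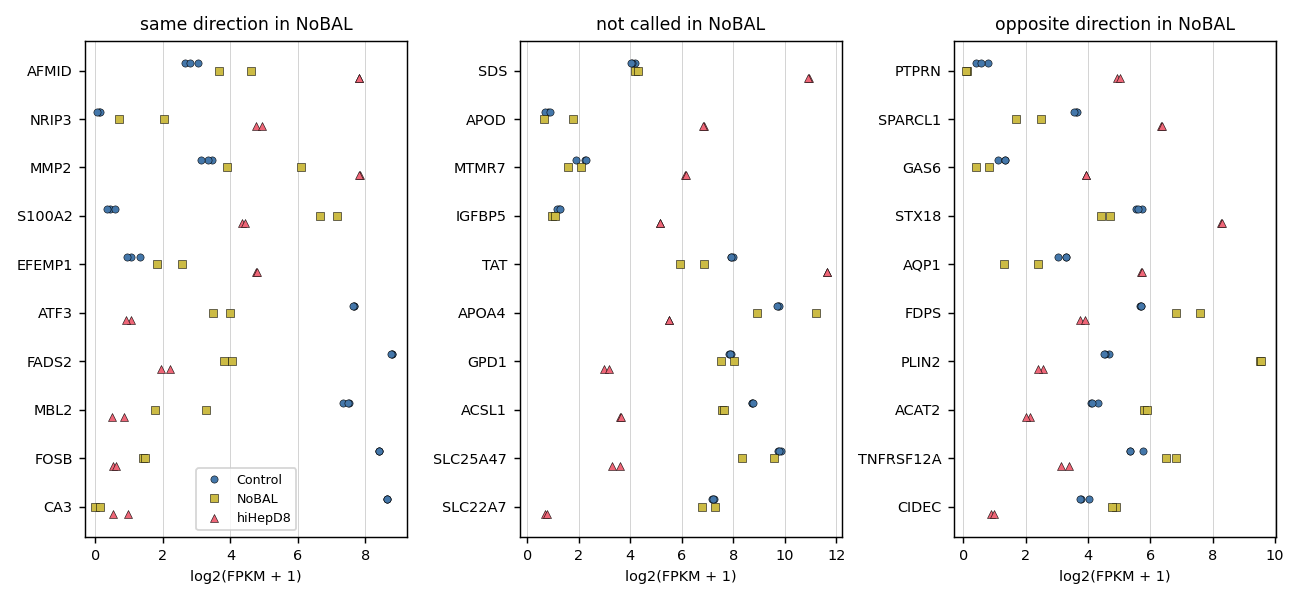
Level of the 5 genes that rose most and the 5 that fell most in hiHepD8 against Control, as log2(FPKM + 1) per library, for genes that NoBAL changed in the same direction (left), that were not called in NoBAL (middle) and that NoBAL changed in the opposite direction (right). The groups were defined by these values, so their order is a description; the hiHepD8 points of PLIN2 lie below and its NoBAL points above the Control points.

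The genes were then read by function, in 47 lists of liver functions, signalling, stress and cell type markers. For each list the counts of called members stand beside the 15.1% of all genes that were higher and the 17.1% that were lower.

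**Figure D3:**
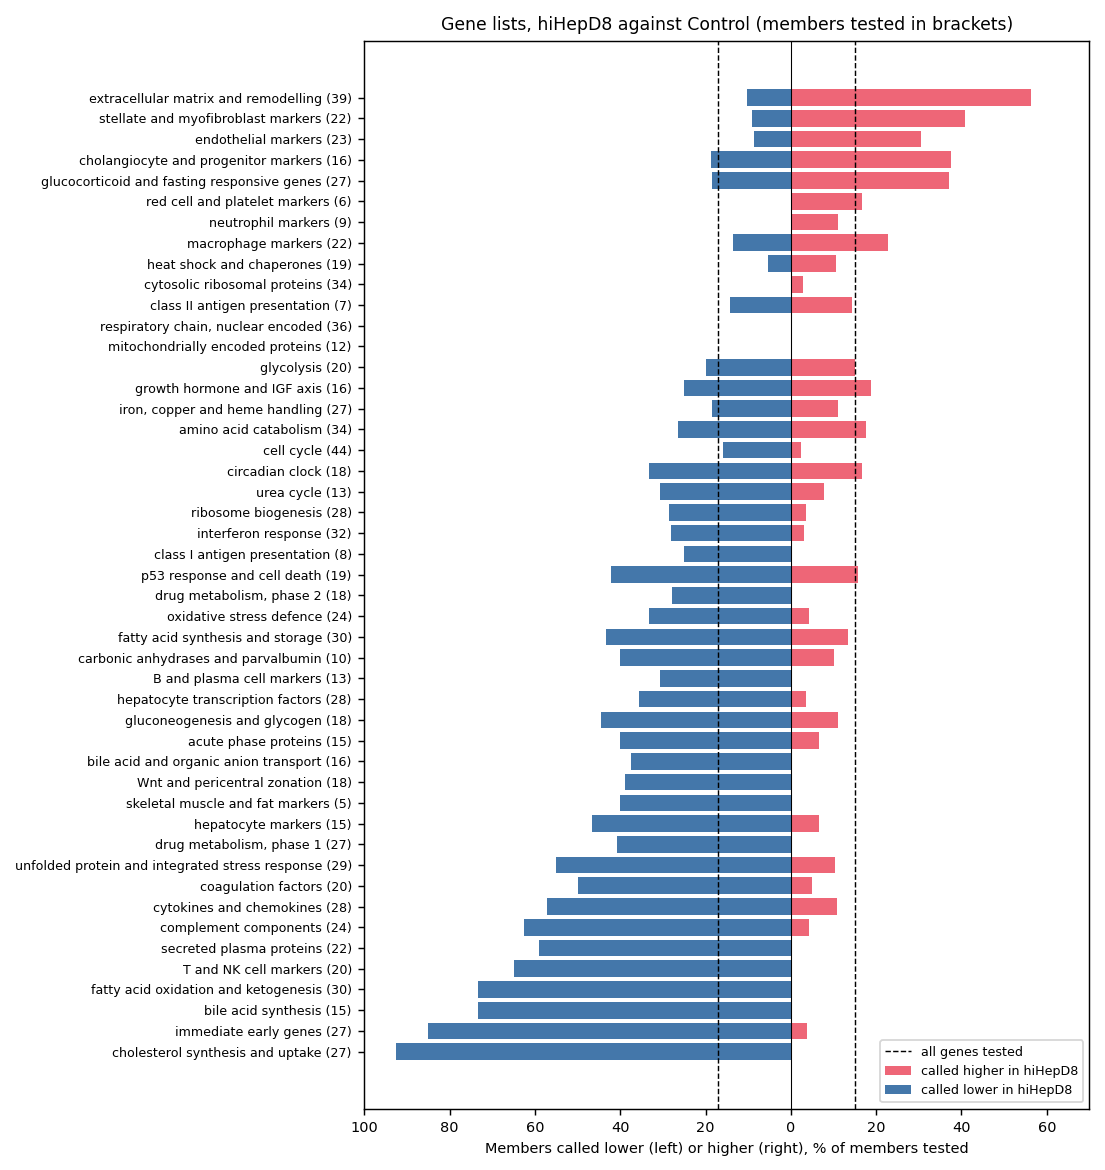
Share of the tested members of each gene list called lower (blue, to the left) or higher (red, to the right) in hiHepD8 against Control, in percent, with the number of members tested in brackets and dashed lines at the shares over all genes tested (15.1% higher, 17.1% lower). Cholesterol synthesis and immediate early genes reach farthest to the left and extracellular matrix farthest to the right.

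Of 34 genes of amino acid breakdown tested, 6 rose and 9 fell, and the median change was 0.25 against -0.02 over all genes. Which direction held more calls turned with the processing: 9 rose and 7 fell when the libraries were rescaled without mitochondrial and the top 5 genes, and 18 rose and 15 fell with only the 5 Control and hiHepD8 libraries in the fit. The members that rose are spread over several amino acids: SDS for serine, TAT for tyrosine, AASS for lysine, GNMT and CBS for methionine and homocysteine, and BCKDHA (1.63) for the branched-chain amino acids. TAT, tyrosine aminotransferase (chr6:14571311-14583203), read 238, 250.1 and 238 FPKM in Control, 116 and 59.9 FPKM in NoBAL and 3236 and 3203 FPKM in hiHepD8, a rise of 3.73 ± 0.60 (adjusted p = 0.0028). AASS read 23.1, 23.5 and 23.2 FPKM in Control and 95.8 and 97 FPKM in hiHepD8. GNMT read 614, 656 and 607 FPKM in Control and 2242 and 2190 FPKM in hiHepD8, and CBS read 154, 167 and 155 FPKM in Control and 437 and 435 FPKM in hiHepD8. These 3 were below Control in NoBAL (changes of -2.93, -2.71 and -3.01) and above it in hiHepD8 (2.01, 1.82 and 1.45). BCKDHA, AASS and GNMT lost the call without either hiHepD8 library (adjusted p = 0.061 to 0.11).

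The members that fell included AMT (-3.09) of the glycine cleavage system, DMGDH (-1.71) and SARDH (-1.55) of choline breakdown, and ALDH4A1 (-1.5) of proline breakdown. The others were HAAO (-1.39) and KYNU (-1.13) of tryptophan breakdown, GPT (-1.32), the alanine aminotransferase, OTC (-1.47) and AGXT2 (-1.5). All 9 were called lower in NoBAL too. In NoBAL 26 of the 34 were lower than Control and none higher, with a median of -2.15. Without hiHepD8 replicate 1 or 2, 3 and 3 members were called higher and 5 and 4 lower. SARDH, ALDH4A1, AGXT2 and HAAO lost the call without either hiHepD8 library (adjusted p = 0.051 to 0.12). KYNU lost it without replicate 2 (adjusted p = 0.058).

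**Figure D4:**
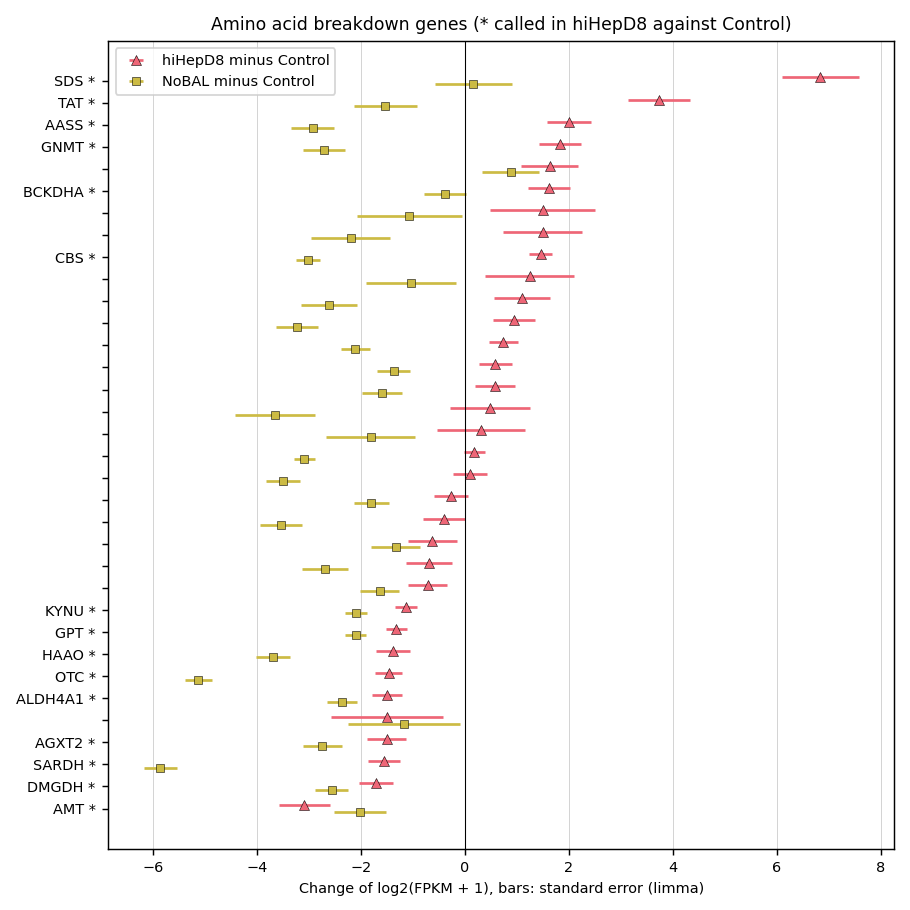
Change of log2(FPKM + 1) against Control of the 34 genes of amino acid breakdown, with the genes named in the text labelled, in hiHepD8 (triangles) and in NoBAL (squares), with limma's standard error; both changes use the same 3 Control libraries. SDS, TAT, AASS, GNMT, BCKDHA and CBS, marked as called, lie to the right of 0 in hiHepD8.

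In the urea cycle list, 4 of 13 members fell and 1 rose. OTC, ornithine transcarbamylase, stood at 334, 328 and 334 FPKM in Control, 10.8 and 6.74 FPKM in NoBAL and 118 and 121 FPKM in hiHepD8, so it stood below Control (change -1.47 ± 0.26) and above NoBAL (change 3.66 ± 0.29). Also lower were GLUD1 (-2.20), glutamate dehydrogenase, GLUL (-2.18), glutamine synthetase, and SLC25A13 (-1.63), the mitochondrial aspartate carrier. ASL, argininosuccinate lyase, was higher (1.13). CPS1, the entry enzyme of the cycle, read 311, 284 and 306 FPKM in Control and 564 and 559.8 FPKM in hiHepD8 and was not called (adjusted p = 0.63). Without hiHepD8 replicate 1 or 2, 1 and 1 members were called lower and none higher, and with only the 5 Control and hiHepD8 libraries 7 were higher and 6 lower. GLUD1, GLUL, SLC25A13 and ASL lost the call without either hiHepD8 library (adjusted p = 0.055 to 0.19).

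Genes known to answer to glucocorticoids and fasting included 10 that rose and 5 that fell among 27, with a median of 0.46. Beside SDS and TAT these were FKBP5 (3.35), a co-chaperone of the glucocorticoid receptor, TXNIP (2.66), KLF15 (1.97), CRISPLD2 (1.59), PPARGC1A (1.5), TSC22D3 (1.0), PER1 (0.95) and LCN2 (0.74). FKBP5 read 10.3, 10.5 and 9.25 FPKM in Control, 38 and 40.7 FPKM in NoBAL and 112 and 110.2 FPKM in hiHepD8. TXNIP, which limits glucose uptake, read 47.6, 49.4 and 47.9 FPKM in Control, 78.2 and 74.4 FPKM in NoBAL and 313 and 308 FPKM in hiHepD8. KLF15, CRISPLD2, TSC22D3, PER1 and LCN2 lost the call without either hiHepD8 library (adjusted p = 0.05 to 0.23).

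Other members of that list went down: SLC25A47, ANGPTL4 (-1.83), SLC38A2 (-1.35), FGF21 (-1.01) and NR3C1 (-0.81), the glucocorticoid receptor itself. PCK1, the gluconeogenic enzyme phosphoenolpyruvate carboxykinase, was not called, with 1878, 1923 and 1821 FPKM in Control and 1487 and 1478 FPKM in hiHepD8. G6PC1, glucose-6-phosphatase, read 62.1, 59.7 and 64 FPKM in Control and 422 and 424 FPKM in hiHepD8 but missed the threshold (change 2.75 ± 0.91, adjusted p = 0.052). Without hiHepD8 replicate 1 or 2, 5 and 5 members were higher and 4 and 3 lower. SLC38A2 lost the call without either hiHepD8 library (adjusted p = 0.1). FGF21 lost it without replicate 2 (adjusted p = 0.059).

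Of 18 genes of gluconeogenesis and glycogen, 2 rose and 8 fell. PPP1R3C, which targets a phosphatase to glycogen, read 84.7, 84.7 and 82 FPKM in Control, 5.56 and 7.55 FPKM in NoBAL and 7.31 and 6.83 FPKM in hiHepD8, a change of -3.39 ± 0.29 (adjusted p = 0.00018), and GCKR fell too (-2.09). SLC37A4, the glucose-6-phosphate transporter, rose (158, 161 and 149 FPKM in Control, 29.1 and 9.97 FPKM in NoBAL and 586 and 581 FPKM in hiHepD8). Among 20 glycolysis genes, 3 rose and 4 fell: ALDOA (2.02) and PFKP (1.66) were among the higher, and PKLR (-1.64), the liver pyruvate kinase, was lower with GAPDH (-1.13), PGK1 (-0.80) and ENO2 (-0.73). Without hiHepD8 replicate 1 or 2, 6 and 6 gluconeogenesis and glycogen genes were lower and none higher, and 2 and 2 glycolysis genes were higher and 1 and 1 lower. In the rescaled libraries 5 glycolysis genes rose and 2 fell. SLC37A4, GAPDH, PGK1 and ENO2 lost the call without either hiHepD8 library (adjusted p = 0.064 to 0.22).

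Genes of fatty acid oxidation fell together. Of 30 genes tested, 22 fell and none rose (16 and 15 fell without hiHepD8 replicate 1 or 2), and the median change was -1.68 against -0.02 over all genes. ACAA2, the thiolase that ends a round of mitochondrial oxidation, read 457, 479 and 459.6 FPKM in Control, 30.7 and 17.1 FPKM in NoBAL and 10.8 and 10.6 FPKM in hiHepD8, a change of -5.32 ± 0.28 (adjusted p = 3e-05). ACSL1, which activates fatty acids, read 426, 427 and 429.9 FPKM in Control, 189 and 197 FPKM in NoBAL and 11.3 and 11.6 FPKM in hiHepD8, and CPT1A, the gate of entry into mitochondria, read 77.1, 81.1 and 73.6 FPKM in Control, 41.1 and 85.2 FPKM in NoBAL and 5.08 and 5.43 FPKM in hiHepD8. Both were new falls, since NoBAL was not called against Control for either. For ACSL1 the NoBAL change was -1.15 (adjusted p = 0.076 by limma), and EmptyBAL read 7.98 and 32.7 FPKM. The summed level of the list was 4411 to 4527 FPKM in Control and 2135 to 2315 FPKM in NoBAL. It was 654 to 1094 FPKM in EmptyBAL and 1207 to 1218 FPKM in hiHepD8.

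PPARA, the nuclear receptor that drives oxidation genes, went from 20, 19.3 and 19.9 FPKM in Control to 0.499 and 0.312 FPKM in hiHepD8 and was low in NoBAL as well (0.798 and 0.971 FPKM). Its change of -3.89 ± 0.13 (adjusted p = 3.7e-06) was 1 of the 17 still called with the libraries averaged. Of the 22 members that fell, 11 were remaining and 8 new; CPT2 (-2.49), ACADVL (-1.94), ACADM (-1.89) and HADHA (-1.48) were among the new ones, with NoBAL changes of -0.05, 0.17, -0.22 and 0.21.

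Genes of fatty acid synthesis and storage split. Of 30 tested, 13 fell and 4 rose (8 and 8 fell, and 3 and 3 rose, without hiHepD8 replicate 1 or 2). FADS2, a desaturase that makes polyunsaturated fatty acids (chr2:9633941-9666666), fell from 443, 445 and 431 FPKM to 2.82 and 3.63 FPKM (-6.71 ± 0.17, adjusted p = 1.2e-06), and its neighbour in the pathway FADS1 from 56.1, 53.6 and 51.8 to 2.6 and 2.06 FPKM. DGAT2, which makes triglyceride, fell from 84.9, 72.1 and 77.3 to 1.45 and 1.32 FPKM, and THRSP, a lipogenic regulator, from 39.5, 39.2 and 36.8 to 0.745 and 0.654 FPKM. NoBAL was low in both (1.12 and 0.551 FPKM of DGAT2 and 0.41 and 0.193 FPKM of THRSP). In contrast FASN, the fatty acid synthase, rose (80.5, 83.8 and 79.6 FPKM in Control, 62.5 and 30.5 FPKM in NoBAL and 273 and 283 FPKM in hiHepD8), with a change of 1.76 ± 0.30 (adjusted p = 0.0034). So did SREBF1 (0.96), the lipogenic transcription factor, PNPLA2 (1.37), the lipase that opens triglyceride stores, and LPIN1 (0.40). LPIN1 lost the call without either hiHepD8 library (adjusted p = 0.22 to 0.25).

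Cholesterol synthesis and uptake was the list with the largest share of falls. Of 27 members, 25 fell and none rose (21 and 20 fell without hiHepD8 replicate 1 or 2), with a median of -2.0. MVK, mevalonate kinase, read 179, 187 and 178 FPKM in Control, 35.9 and 50.3 FPKM in NoBAL and 13.6 and 17.1 FPKM in hiHepD8, a change of -3.49 ± 0.20 (adjusted p = 3.4e-05). INSIG1, which holds the sterol sensor in the endoplasmic reticulum, fell from 473, 489.5 and 458 FPKM to 42.6 and 41.1 FPKM (-3.47 ± 0.20), and SREBF2, the transcription factor of the pathway, from 37.1, 38.6 and 37.6 to 9.72 and 9.8 FPKM. The 3 Control and 2 hiHepD8 libraries were far apart in each of these genes.

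MSMO1 (-3.29), a demethylating enzyme late in the pathway, was also among the largest falls of the list. NPC1L1 (-0.78, adjusted p = 0.24), a sterol transporter, was not called. Of the 25 falls, 13 were new, 10 remained from NoBAL and 2, ACAT2 and FDPS, were higher in NoBAL; in NoBAL the median of the list was -0.41. The summed level of the list was 2250 to 2314 FPKM in Control and 1050 to 1155 FPKM in NoBAL. It was 306 to 356 FPKM in EmptyBAL, below the 560 to 566 FPKM of hiHepD8. Beside the fall of the list, FASN and SREBF1 of the fatty acid pathway were higher, as given above.

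Bile acid synthesis fell in 11 of 15 members with no rise (7 and 7 without hiHepD8 replicate 1 or 2). CYP7A1, the rate-limiting enzyme of the classic pathway, read 33.7, 32.3 and 34.1 FPKM in Control, 0.239 and 0.259 FPKM in NoBAL and 5.78 and 5.76 FPKM in hiHepD8, a change of -2.34 ± 0.15 against Control and of 2.44 ± 0.16 against NoBAL (adjusted p = 4.7e-05 and 5e-05). AKR1D1 (-2.54) and SLC27A5 (-2.07), which act later in the pathway, lay between NoBAL and Control in the same way. CYP8B1, the enzyme that sets the share of cholic acid, read 3.25, 2.15 and 3.29 FPKM in Control and was listed at 0 in both hiHepD8 libraries. Of 16 bile acid and organic anion transporters, 6 fell and none rose (4 and 4), SLC22A7 the most, with ABCC6 (-2.20) and SLCO2B1 (-2.08). AKR1D1 lost the call without either hiHepD8 library (adjusted p = 0.067 to 0.068).

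**Figure D5:**
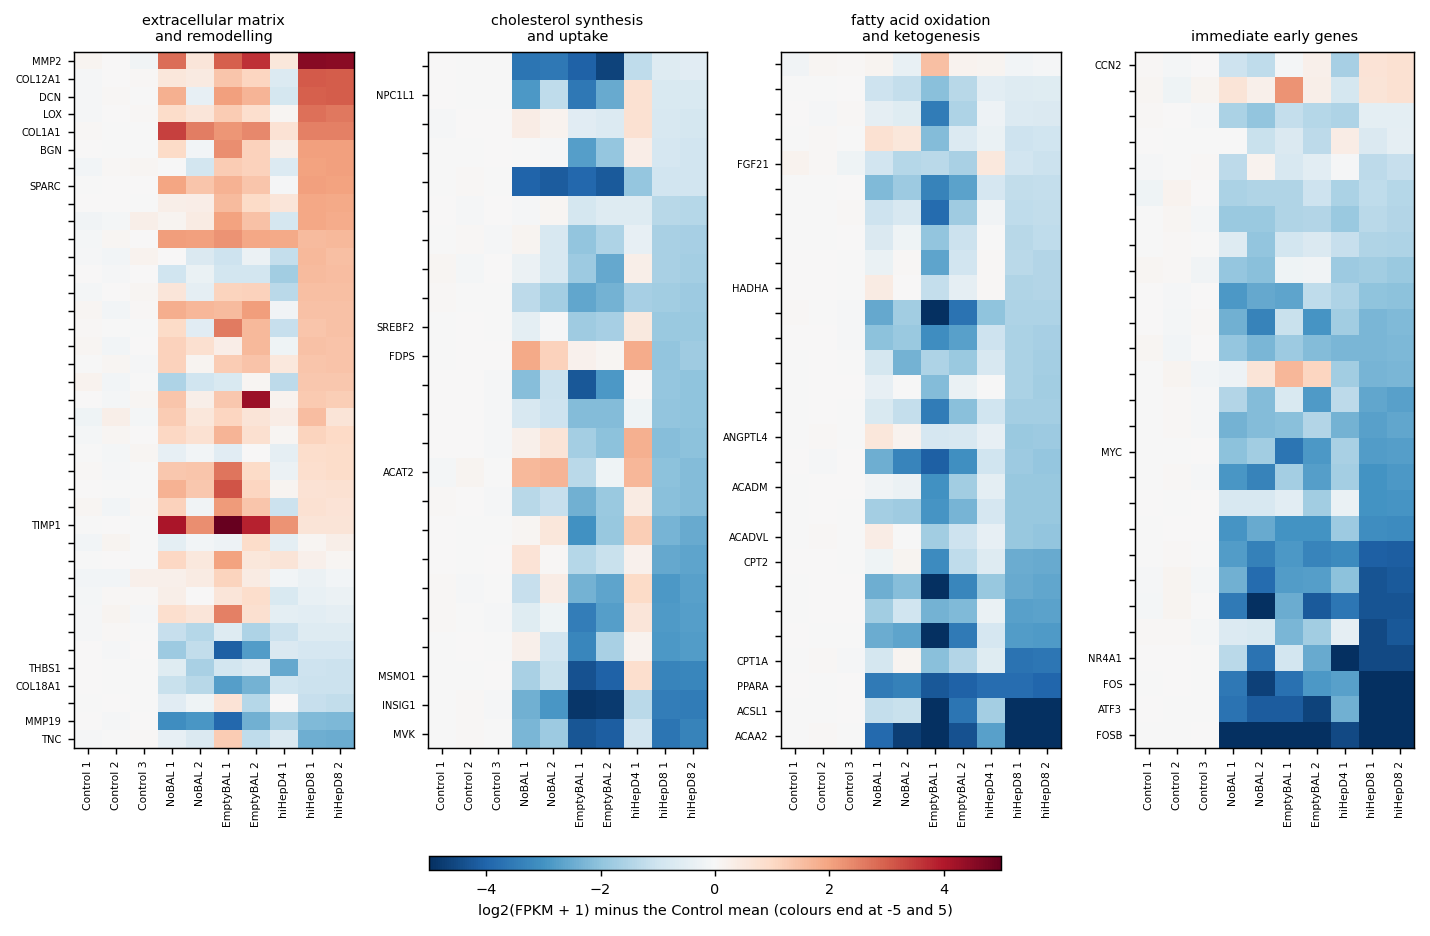
Level of tested members of 4 gene lists, with the genes named in the text labelled, in each of the 10 libraries, as log2(FPKM + 1) minus the Control mean, sorted within a list by the change in hiHepD8 (red higher, blue lower, colours ending at -5 and 5). In the 2 hiHepD8 columns the matrix list is red for most members, the cholesterol and oxidation lists are blue for nearly all, and FOSB, ATF3 and FOS are the deepest blue of the immediate early genes.

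Secreted plasma proteins fell in 13 of 22 members and rose in none (8 and 8 fell without hiHepD8 replicate 1 or 2; median -1.98). ALB, albumin, the most abundant transcript in Control and below ATP6 and COX3 in hiHepD8, read 55098, 52275 and 54412 FPKM in Control, 7337 and 7705 FPKM in NoBAL and 13003 and 12980.4 FPKM in hiHepD8, a change of -2.05 ± 0.45 (adjusted p = 0.011), and the difference of hiHepD8 from NoBAL was not called (0.79 ± 0.50). TTR, transthyretin, fell from 8112, 9062 and 8649 to 385 and 395 FPKM, and TF, transferrin, from 9798, 9365 and 9714 to 459 and 458 FPKM. HRG (-4.96), histidine-rich glycoprotein, was higher in hiHepD8 than in NoBAL by 2.35 ± 0.50. APOC3 (21456, 21676 and 21415 FPKM in Control, 12713 and 12489 FPKM in hiHepD8), the other secreted protein among the 5 most abundant transcripts of both groups, was not called (adjusted p = 0.25), and neither was APOA1 (-0.46). The remaining 3 of those 5, COX3, ATP6 and COX1, are discussed with the mitochondrial genes. ALB lost the call without either hiHepD8 library (adjusted p = 0.089 to 0.09).

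Coagulation factors fell in 10 of 20 members, with SERPIND1 (-2.40), F5 (-1.90), F13B (-1.82) and PLG (-1.81) in front, and F8 rose (1.41); without hiHepD8 replicate 1 or 2, 2 and 3 were lower and none higher. Complement fell in 15 of 24 members (7 and 9), led by MBL2, the mannose-binding lectin, from 162, 182 and 177 to 0.802 and 0.405 FPKM, and by C8B (-3.86) and MASP2 (-3.70). C7, a component of the membrane attack complex, rose from 32.2, 31.9 and 30.2 FPKM to 304 and 302 FPKM (3.23 ± 0.40, adjusted p = 0.00088), with 36.5 and 15.5 FPKM in NoBAL. Of 15 acute phase genes, 6 fell (4 and 4) and 1 rose, LCN2 (0.74). SOCS3, an inhibitor of cytokine signalling, fell from 236, 253 and 232 to 10.5 and 10.3 FPKM, and LBP (-3.76) and CP (-2.87) fell with it. SERPIND1, PLG, F8 and LCN2 lost the call without either hiHepD8 library (adjusted p = 0.091 to 0.23). F13B lost it without replicate 1 (adjusted p = 0.05).

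In the drug metabolism lists every call was a fall. Of 27 phase 1 genes, 11 fell (7 and 7 without hiHepD8 replicate 1 or 2), and of 18 phase 2 genes, 5 fell (2 and 2). CYP2A19 read 5609, 5582 and 5439.8 FPKM in Control, 4.52 and 0.521 FPKM in NoBAL and 127 and 133 FPKM in hiHepD8. CYP2E1, which oxidizes ethanol, read 3077, 3018 and 3044 FPKM in Control, 596 and 378 FPKM in NoBAL and 241 and 237 FPKM in hiHepD8. CYP2B22 was near 0 in hiHepD8 (0 and 0.019 FPKM, against 84.7, 90.6 and 81.4 FPKM in Control). CES1 (-3.67), a carboxylesterase, and GSTA1 (-2.51), a glutathione transferase, fell as well, and SULT1B1 read 8.15, 7.99 and 8.8 FPKM in Control and 0.0205 and 0 FPKM in hiHepD8. Close paralogs among the cytochrome P450 and transferase genes may share fragments, so single members are uncertain. Of 10 carbonic anhydrase and parvalbumin genes, 4 fell, CA3, PVALB, CA2 (-2.31) and CA4 (-0.94), and 1 rose, CA9 (0.56); 3 and 3 were lower and none higher without hiHepD8 replicate 1 or 2. CYP2A19, GSTA1, CA4 and CA9 lost the call without either hiHepD8 library (adjusted p = 0.068 to 0.2).

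Among 28 hepatocyte transcription factors, 10 fell and 1 rose. PPARA, NR1I2 (-1.62), the pregnane X receptor, ESR1 (-1.45) and ONECUT1 (-1.36) were the largest falls. HNF4A, the central regulator of hepatocyte identity, read 109, 112 and 105 FPKM in Control, 84.6 and 90.3 FPKM in NoBAL and 118 and 119 FPKM in hiHepD8 and was not called, with a wide standard error (0.12 ± 0.83). CEBPA, another hepatocyte factor, was not called either, with 24.8, 19.2 and 23.4 FPKM in Control and 22 and 20.4 FPKM in hiHepD8. Hepatocyte markers as a list fell in 7 of 15 members and rose in 1, TAT (3 and 3 fell without hiHepD8 replicate 1 or 2), and their summed level was 101000 to 104100 FPKM in Control, 19320 to 29210 FPKM in NoBAL and 31090 to 31250 FPKM in hiHepD8. Of 18 genes of Wnt signalling and pericentral zonation, 7 fell and none rose, among them GLUL, CYP2E1, LECT2 (-3.20) and RGN (-2.07).

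The growth hormone and IGF axis moved in parts. IGFALS, the acid-labile subunit that stabilizes IGF1 in blood, fell from 193, 198 and 187 to 1.9 and 2.34 FPKM (-5.96 ± 0.26, adjusted p = 1.2e-05). The growth hormone receptor GHR fell from 56.8, 50.9 and 56.1 to 7.37 and 6.51 FPKM, and its target CISH from 121, 135 and 124 to 13.3 and 15.7 FPKM; all 3 were called lower in NoBAL too (changes of -5.94, -2.96 and -4.06). By contrast 3 IGF binding proteins rose anew: IGFBP2 from 526, 527 and 513 to 2791 and 2665 FPKM, IGFBP7 from 272, 282 and 242 to 929.6 and 951 FPKM and IGFBP5 from 1.35, 1.21 and 1.39 to 34.5 and 34.3 FPKM, with NoBAL at 435 and 312, at 215 and 146 and at 0.92 and 1.11 FPKM. IGFBP5 was called higher than Control in EmptyBAL too, with 4.98 and 4.87 FPKM (change 1.35 ± 0.12). In all, 3 of 16 members rose and 4 fell, INSR (-0.77) being the fourth fall. In the rescaled libraries 4 rose and 3 fell. Of 18 circadian genes, 3 rose and 6 fell (1 and 1 rose, and 4 and 4 fell, without hiHepD8 replicate 1 or 2, and 5 rose and 5 fell in the rescaled libraries); ARNTL, a core activator, rose (1.78, 1.48 and 1.82 to 11 and 10.1 FPKM), while PER2 (-3.22), DBP (-2.34) and BHLHE40 (-4.77) fell. The labels give no hour of sampling. INSR lost the call without either hiHepD8 library (adjusted p = 0.17 to 0.19).

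Immediate early genes, which are switched on within minutes of a stimulus, were higher in the Control libraries than in hiHepD8. Of 27 tested, 23 fell and 1 rose (20 and 19 fell without hiHepD8 replicate 1 or 2), with a median of -2.66. FOSB (chr6:51836780-51844531) read 336, 337 and 338 FPKM in Control, 1.66 and 1.74 FPKM in NoBAL and 0.435 and 0.533 FPKM in hiHepD8 (adjusted p = 1.2e-06). FOS read 438, 458 and 443 FPKM in Control, 36.4 and 16.7 FPKM in NoBAL and 5.1 and 5.06 FPKM in hiHepD8, and ATF3 read 202, 200.2 and 199 FPKM in Control, 14.7 and 10.2 FPKM in NoBAL and 1.07 and 0.875 FPKM in hiHepD8. For all 3, Control was the highest of these groups, hiHepD8 the lowest, and NoBAL lay between. NR4A1 (-4.50) fell as well, MYC from 391, 391 and 395 to 56.5 and 56.6 FPKM, and the 1 member that rose was CCN2 (0.72). CCN2 lost the call without either hiHepD8 library (adjusted p = 0.095 to 0.12).

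Cytokines and chemokines fell in 16 of 28 members and rose in 3 (8 and 7 fell, and none rose, without hiHepD8 replicate 1 or 2). CCL2, which draws monocytes, read 250.2, 269 and 245 FPKM in Control, 84.1 and 35.7 FPKM in NoBAL, 238 and 63.9 FPKM in EmptyBAL and 1.71 and 1.73 FPKM in hiHepD8, a change of -6.55 ± 0.54 (adjusted p = 0.00014). CXCL2, which draws neutrophils, fell from 272, 303 and 284 to 9.68 and 10.9 FPKM, and CCL16 (-3.87) and CCL3L1 (-3.30) fell too. CXCL14 (3.05), CCL21 (2.32) and CCL14 (1.63) rose. Among 32 interferon response genes, 9 fell (4 and 3) and 1 rose, with IRF1 (-3.58), IFI6 (-3.45), CXCL10 (-2.89) and ISG12(A) (-2.28) in front. In antigen presentation, 2 of 8 class I genes fell, B2M (-0.84) and ERAP1 (-0.56), and of 7 class II genes SLA-DQB1 fell (-0.67) and SLA-DOA rose (0.49). CCL16, CXCL14, CCL21, CCL14, ISG12(A), B2M, ERAP1, SLA-DQB1 and SLA-DOA lost the call without either hiHepD8 library (adjusted p = 0.051 to 0.24).

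T and NK cell markers fell in 13 of 20 members and rose in none (7 and 5 fell without hiHepD8 replicate 1 or 2), and their summed level was 74.4 to 79.5 FPKM in Control, 17.8 to 23.3 FPKM in NoBAL and 46.9 to 47.1 FPKM in hiHepD8. In EmptyBAL the summed level was 186 to 208 FPKM, the highest of the groups. With upper-quartile scaling 2 members rose and 10 fell, and in the rescaled libraries 2 rose and 8 fell. Only 6 of the 20 reached 5 FPKM in 2 libraries, so most of these levels are low. CD4 read 5.38, 4.87 and 5.97 FPKM in Control and 1.73 and 2.01 FPKM in hiHepD8, and KLRK1 (-1.10), GZMA (-1.36) and NCR1 (-1.73) fell. CD3E, part of the T cell receptor complex, was not called, with 3.34, 3.61 and 2.37 FPKM in Control and 2.36 and 3.11 FPKM in hiHepD8. Of 13 B and plasma cell markers 4 fell, SDC1 (-2.34), POU2AF1 (-1.33), PRDM1 (-1.09) and CD79B (-0.90); SDC1, by far the highest of the 4, is also made by hepatocytes. Of 9 neutrophil markers LCN2 alone was called, and of 6 red cell and platelet markers GP9 alone (0.80). Macrophage markers rose in 5 and fell in 3 of 22 members (3 and 3 rose, 2 and 2 fell; 7 rose and 10 fell with only the 5 Control and hiHepD8 libraries), and their summed level was 1261 to 1360 FPKM in Control and 1036 to 1048 FPKM in hiHepD8. GPNMB went from 3.84, 4.33 and 5.16 to 52.8 and 53.8 FPKM and the scavenger receptor CD163 from 12.8, 13.1 and 12 to 42.1 and 45.7 FPKM. MARCO (-1.58) and the Kupffer cell lectin CLEC4F (-2.28) fell, and LYZ was listed at 0 in both hiHepD8 libraries. NCR1, SDC1, GP9 and MARCO lost the call without either hiHepD8 library (adjusted p = 0.061 to 0.22). POU2AF1 lost it without replicate 1 (adjusted p = 0.06).

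Of 29 genes of the unfolded protein and integrated stress response, 16 fell and 3 rose; with hiHepD8 replicate 1 or 2 left out, 2 and 2 fell and 3 and 3 rose, so which direction held more calls turned. With the replicate block 4 fell and 3 rose, and with only the 5 Control and hiHepD8 libraries in the fit 25 fell and 3 rose. The median change of the list was -0.94 as deposited, and -0.86 and -0.95 without hiHepD8 replicate 1 or 2. The direction of the median therefore did not turn. DDIT3, the transcription factor CHOP, fell from 98.5, 107 and 104 to 11.8 and 10.2 FPKM, and ATF3 was given above; PHGDH (-3.03), the first enzyme of serine synthesis, fell too. The rises were SESN2, a sestrin of the amino acid stress response, from 5.85, 5.51 and 5.91 to 58.1 and 55.1 FPKM (3.09 ± 0.39, adjusted p = 0.00095), VLDLR (2.14) and CHAC1 (1.49). HSPA5, the chaperone BiP, read 98.6, 94.7 and 103 FPKM in Control, 421 and 142 FPKM in NoBAL and 35.9 and 34.7 FPKM in hiHepD8 and was not called (adjusted p = 0.093). PHGDH lost the call without either hiHepD8 library (adjusted p = 0.15 to 0.16).

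In the p53 and cell death list 8 of 19 fell, with GDF15 (-4.03), CDKN1A (-2.08) and GADD45A (-2.23) in front, and 3 rose (6 and 6 fell, and 2 and 3 rose, without hiHepD8 replicate 1 or 2). Of 24 oxidative stress genes 8 fell (4 and 5), among them CAT, catalase, from 2143, 2124 and 2129.97 to 285 and 280.4 FPKM, SOD1 (-2.16) and OSGIN1 (-4.91), and SOD3 rose (2.95); the median of the list, -0.10, was 0.29 in the rescaled libraries. Heat shock genes rose in 2 and fell in 1 of 19, with BAG3 (1.5) and HSP90AB1 (0.82) higher and HSPA6 (-2.66) lower. Of 27 iron, copper and heme genes 5 fell and 3 rose (2 and 2 fell, and none rose, without hiHepD8 replicate 1 or 2; 2 fell and 5 rose in the rescaled libraries), including TF, CP, FTL (-1.07), the ferritin light chain, and SMAD7 (1.35). CDKN1A, CAT, SOD3, BAG3, HSP90AB1, FTL and SMAD7 lost the call without either hiHepD8 library (adjusted p = 0.063 to 0.15).

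In NoBAL 43 of 44 cell cycle genes were above Control, with a median of 3.27; in hiHepD8 7 were below it, 1 was above it and the median was -0.22. The share of lower calls was near that over all genes (17.1%), and the balance moved with the processing: 5 were higher and 5 lower in the rescaled libraries, 3 and 4 with upper-quartile scaling, and 1 and 13 with a pseudocount of 0.1. CDC20, an activator of the anaphase-promoting complex, read 0.877, 1.22 and 1.12 FPKM in Control, 65.9 and 47.6 FPKM in NoBAL and 0.277 and 0.154 FPKM in hiHepD8. TK1, thymidine kinase, read 3.75, 3.28 and 2.32 FPKM in Control, 141 and 65.4 FPKM in NoBAL and 0.404 and 0.511 FPKM in hiHepD8. PCLAF, a PCNA-binding factor, read 4.14, 2.8 and 2.56 FPKM in Control, 45.8 and 96.3 FPKM in NoBAL and 0.177 and 0.0899 FPKM in hiHepD8. MCM7, a subunit of the replicative helicase, was the 1 gene above Control, with 14.7, 15.8 and 15.7 FPKM in Control and 31.1 and 30.8 FPKM in hiHepD8. These levels are low, and without hiHepD8 replicate 1 or 2, 1 and 1 members were called lower and none higher. CDC20, TK1 and MCM7 lost the call without either hiHepD8 library (adjusted p = 0.06 to 0.17).

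Of 28 ribosome biogenesis genes 8 fell and 1 rose, against 25 higher in NoBAL; MYC, PPAN (-0.91), NOLC1 (-0.75) and GNL3 (-0.70) fell, and 1 and 2 were lower without hiHepD8 replicate 1 or 2. In the rescaled libraries the list turned, with 3 higher, 2 lower and a median of 0.10 against -0.26 as deposited, and upper-quartile scaling gave 2 higher and 4 lower. Of 34 cytosolic ribosomal proteins RPL7 alone was called, as higher (0.62 ± 0.20, adjusted p = 0.045), with 2 at an unadjusted p under 0.05. None of 36 nuclear encoded genes of the respiratory chain was called by limma (2 at an unadjusted p under 0.05), and the list's median, -0.10, turned to 0.11 with upper-quartile scaling. CYC1 read 172, 165 and 171 FPKM in Control, 729.8 and 454 FPKM in NoBAL and 206 and 204 FPKM in hiHepD8, and COX4I1 read 981, 951 and 939 FPKM in Control, 2284 and 1001 FPKM in NoBAL and 973 and 954 FPKM in hiHepD8. None of 12 mitochondrially encoded genes was called by limma, or had an unadjusted p under 0.05, with a median of -0.75. COX3 read 30668, 28945 and 30728 FPKM in Control and 16161 and 16273 FPKM in hiHepD8, ATP6 read 27093, 25661 and 27934 FPKM in Control and 16083 and 17004 FPKM in hiHepD8, and COX1 read 13778, 13478 and 13915 FPKM in Control and 10576 and 10652 FPKM in hiHepD8. With only the 5 Control and hiHepD8 libraries in the fit, 12 of these 12 genes were called lower, 6 respiratory chain genes higher and 15 lower, and 27 ribosomal protein genes higher and 3 lower, so the count for these lists depends on which libraries set the spread. PPAN, GNL3 and RPL7 lost the call without either hiHepD8 library (adjusted p = 0.056 to 0.24). NOLC1 lost it without replicate 1 (adjusted p = 0.058).

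Extracellular matrix genes rose in 22 of 39 members and fell in 4 (15 and 16 rose, and 1 and 1 fell, without hiHepD8 replicate 1 or 2), the largest share of rises of any list here; the median was 1.28, against -0.02 over all genes. COL1A1, a chain of fibrillar collagen I, read 31.3, 29.6 and 29.9 FPKM in Control, 331 and 184 FPKM in NoBAL and 178 and 179.7 FPKM in hiHepD8, a rise of 2.53 ± 0.25 (adjusted p = 0.00033). DCN, the small proteoglycan decorin, read 8.4, 9.01 and 8.64 FPKM in Control, 32.1 and 6.32 FPKM in NoBAL and 75.6 and 77.1 FPKM in hiHepD8. COL12A1, a collagen that binds fibrils, read 1.28, 1.38 and 1.46 FPKM in Control, 2.54 and 2.27 FPKM in NoBAL and 19 and 18.5 FPKM in hiHepD8. In hiHepD8 all 3 lay above every Control library, whereas the NoBAL libraries lay on either side of Control for DCN. The summed level of the list was 1867 to 1931 FPKM in Control and 1583 to 2405 FPKM in NoBAL. It was 2158 to 5191 FPKM in EmptyBAL and 2634 to 2635 FPKM in hiHepD8.

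LOX, which cross-links collagen, rose from 0.682, 0.772 and 0.857 to 10.9 and 10.1 FPKM, SPARC from 59.6, 61.1 and 61.4 to 253 and 248 FPKM and BGN, the proteoglycan biglycan, from 104, 98.8 and 101 to 418 and 427 FPKM. Of the 22 rises and 4 falls together, 13 remained from NoBAL, 9 were new and 2 were opposite. TNC (-2.46), MMP19 (-2.23), COL18A1 (-1.08) and THBS1 (-1.05) were the falls, and TIMP1, an inhibitor of matrix proteases, read 23.5, 23.7 and 23.6 FPKM in Control, 421 and 121 FPKM in NoBAL and 37.6 and 37.4 FPKM in hiHepD8 and was not called. BGN, TNC, COL18A1 and THBS1 lost the call without either hiHepD8 library (adjusted p = 0.057 to 0.13).

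Markers of cells that make matrix and vessels moved in both directions. Stellate and myofibroblast markers rose in 9 of 22 and fell in 2 (7 and 7 rose, and 1 and 1 fell, without hiHepD8 replicate 1 or 2), with a summed level of 859 to 902 FPKM in Control and 1657 to 1667 FPKM in hiHepD8. That summed level was 1087 to 1500 FPKM in NoBAL and 1381 to 2817 FPKM in EmptyBAL. VIM, vimentin, rose from 121, 121 and 119.7 to 640.5 and 641 FPKM and PDGFRA from 1.84, 1.43 and 1.69 to 10.7 and 11 FPKM. ACTA2, the smooth muscle actin of myofibroblasts, was not called, with 218, 238 and 201 FPKM in Control and 166 and 169 FPKM in hiHepD8. NGFR fell (-4.00), as did LRAT (-1.05), the retinol-storing enzyme of quiescent stellate cells. Endothelial markers rose in 7 of 23 and fell in 2 (4 and 4 rose, and 1 and 1 fell), with a summed level of 498 to 546 FPKM in Control and 586 to 589.7 FPKM in hiHepD8. Their summed level was 456 to 457 FPKM in NoBAL and 569 to 1659 FPKM in EmptyBAL. VWF (1.62, 1.31 and 1.58 to 17.5 and 17.8 FPKM), CD34 (2.39, 2.79 and 2.68 to 15.3 and 15.5 FPKM) and RAMP2 (1.83) rose, whereas the sinusoidal lectin CLEC4G fell (211, 233 and 203 to 46.3 and 46.4 FPKM). The part of a changed share of these cells in the matrix genes was not tested. LRAT, RAMP2 and CLEC4G lost the call without either hiHepD8 library (adjusted p = 0.071 to 0.18).

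Cholangiocyte and progenitor markers rose in 6 of 16 and fell in 3 (2 and 2 rose, and 1 and 2 fell, without hiHepD8 replicate 1 or 2). KRT8 and KRT18, the keratins of hepatocytes and bile duct cells alike, fell anew, KRT8 from 706, 733 and 693 FPKM to 89.7 and 90.8 FPKM with 828 and 911 FPKM in NoBAL, and KRT18 from 369, 370.1 and 363 to 63.8 and 66.5 FPKM with 732 and 455 FPKM. KRT7, which is restricted to bile duct cells in normal liver, read 8.63, 9.66 and 8.38 FPKM in Control and 19.3 and 21 FPKM in hiHepD8 and rose (change 1.10 ± 0.30, adjusted p = 0.026). SOX9 and EPCAM stayed under 5 FPKM in all 5 libraries. The summed level of the list was 1247 to 1302 FPKM in Control and 384 to 390 FPKM in hiHepD8, most of it KRT8 and KRT18. KRT7 lost the call without either hiHepD8 library (adjusted p = 0.12 to 0.15). KRT18 lost it without replicate 1 (adjusted p = 0.053).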

How the data were processed

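Total RNA of pig liver, extracted with Trizol, was made into TruSeq libraries and sequenced as paired ends on an Illumina HiSeq instrument, per the labels' protocols. HTSeq, Cufflinks, HISAT2 and the build Sscrofa11.1 are listed per the submitters' processing notes, and how strands were handled is not given. The deposited table holds FPKM values per gene, made by the authors, with no counts, so depth is unknown and no count test was run: the commonest ratio between low values held for only 31 of 3273 genes between Control replicates 1 and 3 and for 29 of 3657 between the hiHepD8 replicates. Gene symbols came from the table (16497 genes) or the reference table of IDs (851), and 14557 genes have none. Positions came from the RefSeq table of Sscrofa11.1, matched by ID or symbol, and no sequences were used.

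Genes that reached 1 FPKM in 2 or more of 10 libraries were fitted on log2(FPKM + 1) with limma 3.58.1 (trend, R 4.3.3; 5 residual and 2.73 prior degrees of freedom), 1 mean per group, with Benjamini-Hochberg adjustment over 12180 genes. The single hiHepD4 library adds nothing to the spread. Tables and figures used matplotlib 3.10.9, numpy 2.4.6 and pandas 2.3.3 in Python 3.11.15. The fit was also run on simulated data, with the same spread for all genes of a group and independent libraries. Real spreads differ between genes and may be technical, so that run checks the code and not the calls. The members and lists were chosen with earlier results of these data known.

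Named genes are the 10 largest rises and falls among called genes with a symbol, libraries that do not overlap and 10 FPKM or more as the mean of the higher group, the 5 largest each way among remaining, new and opposite genes, up to 4 called members of each list (or the 2 most abundant), and the 5 most abundant genes of each group. Results on some genes are not reported here. The following were named after their values were seen: ACADM, ACADVL, ACTA2, AGXT2, ALDH4A1, ANGPTL4, APOA1, ASL, BCKDHA, BGN, CA9, CBS, CCL14, CCL21, CCN2, CD3E, CEBPA, CHAC1, CKM, CLDN11, COL18A1, CPS1, CPT2, CRISPLD2, CXCL14, DES, DMGDH, ENO2, EPCAM, F8, FASN, FGF21, G6PC1, GAPDH, GNMT, GPT, HAAO, HADHA, HNF4A, HSPA5, IGFBP2, IGFBP7, INSR, KLF15, KYNU, LPIN1, LRAT, LYZ, MMP19, MYLPF, NPC1L1, NR3C1, PCK1, PDGFRA, PER1, PGK1, PNPLA2, PPARGC1A, SARDH, SLC38A2, SOX9, SPARC, SREBF1, SREBF2, TECTB, THBS1, TIMP1, TNC, TNNT3, TSC22D3, TXNIP, VIM and VLDLR. Replicate numbers are not stated to mark a shared animal or day, so they were not used as pairs. Deviations of same-numbered libraries of different groups had correlations of -0.0889 to 0.137. In groups of 2 libraries the deviations mirror each other, so this is a weak check that does not exclude pairing. Alternatives were another pseudocount, other filters and scalings, array weights, a replicate block, averaged groups, only 5 libraries, each library left out and, added after the data were seen, the EmptyBAL group left out.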

Additional observations from a re-analysis of the deposited data

Results flagged for a closer look

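Among the genes picked by rule and reported here, 19 differed from Control in opposite directions in hiHepD8 and in NoBAL, and were picked out for that. That choice fixes the direction of hiHepD8 minus NoBAL, so the changes below, which are hiHepD8 minus NoBAL on the log2 scale, are a description and were not tested.

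Lower in hiHepD8 were the proliferation genes TK1 (-6.06), PCLAF (-5.90) and CDC20 (-5.55), the lipid droplet genes PLIN2 (-7.04) and CIDEC (-3.90), the cholesterol pathway genes ACAT2 (-3.76) and FDPS (-3.40), the receptor TNFRSF12A (-3.39), and the nucleolar genes NOLC1 (-2.18), PPAN (-2.16) and GNL3 (-1.77). Higher in hiHepD8 were the glucose-6-phosphate transporter SLC37A4 (5.01), the lysine-degrading AASS (4.93), PTPRN (4.88), SPARCL1 (4.28), AQP1 (3.86), STX18 (3.72), GAS6 (3.31) and SLA-DOA (1.07). Of these, TK1, CDC20, PLIN2, PPAN, GNL3, SLC37A4, AASS and SLA-DOA were not called in hiHepD8 against Control without either hiHepD8 library, and NOLC1 was not called without replicate 1. Day differs with device between these groups, so they cannot be told apart.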

How the results depend on the processing

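The counts given as deposited were 1839 higher, 2084 lower, 1795 remaining, 1213 new and 476 opposite; no called gene named in the text changed sign under any alternative run. Leaving out 1 library gave 760 to 1241 higher, 963 to 1426 lower, 886 to 1182 remaining, 553 to 975 new and 134 to 205 opposite. With a filter of 5 FPKM in 2 libraries, 1087 genes were higher and 744 new. Rescaling without mitochondrial and the top 5 genes gave 3070 higher and 1200 lower. Array weights by group gave 4267 higher, 4601 lower, 2910 remaining, 1926 new and 1151 opposite, and a fit on only the 5 Control and hiHepD8 libraries gave 3980 higher and 4404 lower. With each group averaged to 1 sample, 3 genes were higher, 14 lower, 14 remaining, 3 new and 0 opposite by limma, with 1463 genes at an unadjusted p under 0.05. Without the EmptyBAL group, an alternative chosen after seeing the data, 2819 were higher, 3137 lower, 2993 remaining and 1084 opposite. The replicate block, for numbers that are not stated to pair the samples, gave 1057 higher, 1284 lower, 1046 remaining and 142 opposite. The cause of these moves was not tested. By design, averaging leaves 2 residual degrees of freedom, and leaving out a hiHepD8 library leaves 1 library in that group, with no spread of its own. Another pseudocount or no filter on low values left each count within 1.5 times. Of the 218 called genes picked by the naming rule or named besides it, those still called were 209 with a pseudocount of 0.1, 189 with no filter on low values, 211 with upper-quartile scaling, 195 with the other rescaling, 169 with the block, 13 with averaged groups, 171 to 172 without a Control library and 141 and 143 without hiHepD8 replicate 1 and 2. Depth is unknown, so low values have no counting error.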

Other observations

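The single hiHepD4 library, taken at day 4, was in no comparison here. It read 16.2 FPKM of SDS, 753 FPKM of TAT, 33.9 FPKM of FKBP5, 9660.3 FPKM of ALB, 8.21 FPKM of FADS2, 81.1 FPKM of SLC22A7, 0.765 FPKM of CA3, 23.8 FPKM of CDC20 and 50.2 FPKM of COL1A1. With 1 library there is no spread to set these values against.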
